A study of Homo sapiens with 27 samples.

Results

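The insulin-like growth factor (IGF) binding proteins and the IGF receptors were followed in HT1080, a line from a human fibrosarcoma, in cells that carried 1 of 3 nuclear envelope transmembrane proteins (NETs) or controls. The members were IGF2, IGF1R, IGF2R and IGFBP1 to IGFBP7, and comprised 10 of the 18665 genes and 14 of the 48803 probes measured. All probes that the array's annotation gave for them were taken whatever their values. The members themselves were chosen with earlier results of these data known. IGF2 had 3 probes, IGFBP3 and IGFBP5 had 2 each, and every other member had 1. The brightest probe over all arrays stood for a gene.

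The cells fell into 8 groups and gave 27 arrays, 1 array for each RNA sample. Of the groups, 3 were stable lines carrying a full-length NET fused to GFP, namely NET29 (TMEM120A, n = 4), NET39 (PPAPDC3, now PLPP7, n = 4) and NET47 (TM7SF2, n = 3), and they were set against untreated cells (n = 4). Another 3 were transient transfections with the soluble nucleoplasmic fragment of NET29, NET39 or NET47 fused to GFP (n = 3 each), and they were set against transient transfection with GFP carrying a nuclear localisation signal (NLS-GFP, n = 3). The lines were selected with Geneticin and sorted for GFP. Untreated cells had no GFP, selection or sorting, so those differences and the NET itself cannot be told apart in the line comparisons. The sources used here do not say how many lines each NET was represented by. The paper describes biological replicates, with separate passages of the stable lines, while the labels do not tie an array to a passage. Passages of 1 line share its derivation, so p-values measure the spread between these arrays and not between independent lines.

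The secreted IGF system tunes growth and survival. IGF1 and IGF2 bind the tyrosine kinase receptor IGF1R, which signals through insulin receptor substrates to the PI3K-AKT and RAS-ERK pathways. IGF2R, the cation-independent mannose 6-phosphate receptor, takes up IGF2 for breakdown in lysosomes and carries lysosomal enzymes. IGFBP1 to IGFBP6 hold IGFs with high affinity in the extracellular space and can release them after proteolysis. IGFBP6 favours IGF2 over IGF1. IGFBP7 shares the amino-terminal domain of the family but binds IGFs weakly, and it is known as a secreted matrix-associated protein of mesenchymal and endothelial cells.

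Promoter sequences are shown for IGFBP6, a member that fell in the lines, and for IGF2R, a receptor measured far above background on every array. Both were taken from RefSeq (GRCh38.p14, 250 bases before the annotated start, 5′ to 3′ on the gene's strand). The IGFBP6 window lies at chr12:53097417-53097666 on the plus strand, and capitals mark GGGCGG, a GC box.
IGFBP6: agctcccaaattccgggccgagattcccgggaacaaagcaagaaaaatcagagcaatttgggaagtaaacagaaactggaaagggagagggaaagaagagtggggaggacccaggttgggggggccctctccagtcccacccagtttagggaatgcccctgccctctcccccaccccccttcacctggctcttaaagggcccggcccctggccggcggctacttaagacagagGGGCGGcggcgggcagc
The IGF2R window lies at chr6:159968832-159969081 on the plus strand, and capitals mark CACGTG, an E-box.
IGF2R: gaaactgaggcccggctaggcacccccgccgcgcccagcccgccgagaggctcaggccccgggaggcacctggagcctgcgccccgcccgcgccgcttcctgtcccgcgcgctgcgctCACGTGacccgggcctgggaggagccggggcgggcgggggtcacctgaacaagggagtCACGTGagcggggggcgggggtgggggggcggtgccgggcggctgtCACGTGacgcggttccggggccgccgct
The IGFBP6 window held 1 GGGCGG match, 17 bases before the start, and no CACGTG. The IGF2R window held 3 CACGTG and 6 GGGCGG matches. Among 35116 RefSeq promoter windows of this length, 42.6% held GGGCGG and 6.34% held CACGTG, with both strands searched (CACGTG reads the same on both). G and C made up 61.2% of the IGFBP6 window and 79.2% of the IGF2R window. TATAAA was in 10.7% of windows and TGANTCA in 6.57%, and neither was in these 2. Of the 10 members, 7 matched the promoter table, and among their 9 windows only that of IGFBP4 held TATAAA, 29 bases before its start.

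A value is the log2 of a background-corrected, quantile-normalised bead intensity to which an offset of 50 was added. A step of 1 unit is a doubling of that intensity, offset included, so changes near background are understated. A gene counted as above background on an array where it exceeded the 95th percentile of 615 probes for olfactory and taste receptors, keratin-associated proteins and defensins, genes expected to be silent here. That background level lay between 6.17 and 6.23 in the 15 line and untreated arrays and between 6.17 and 6.27 in the 12 transient arrays. Median raw intensities were 46.9 to 58.9 in the first set and 54.8 to 73.5 in the second. The number of arrays limits the precision. In a principal component analysis 3 arrays stood away from their groups, untreated replicates 2 and 4 and replicate 3 of the NET47 line. Results of the members and pathway lists that changed without all 3 are named, and marker genes were not refitted without them. TM7SF2 was 5.95 log2 units higher in the NET47 line and TMEM120A 1.31 higher in the NET29 line than in untreated cells (limma, adjusted p = 1.04e-22 and 5.16e-08). PLPP7 averaged 5.98 ± 0.06 in the line labelled NET39 and 6.28 ± 0.10 in untreated cells (SD, n = 4 each). The signal of its own gene therefore did not identify the NET39 line, and where in the transcript the probe lies was not used here. None of the 3 genes passed the threshold for its own soluble fragment (0.32, -0.01 and -0.03 log2 for NET29, NET39 and NET47). Of 18 mesenchymal marker genes 17 were above background on at least 3 arrays, against 2 of 11 epithelial, 5 of 9 endothelial, 4 of 9 blood cell and 4 of 11 hepatocyte markers, with THY1 at background on all 27 arrays. Of all 18665 genes 11891 were above background on at least 3 arrays.

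Of the 10 members, 5 were above background on at least 3 arrays, beside 11891 of all 18665 genes. The 5 were the receptors IGF1R and IGF2R and the binding proteins IGFBP2, IGFBP6 and IGFBP7. IGF1R, IGF2R, IGFBP6 and IGFBP7 were above background on all 27 arrays and IGFBP2 on 12. IGF2, IGFBP1, IGFBP3 and IGFBP4 were on none, and each of the 2 IGFBP5 probes was on 1 untreated array only. HT1080 cells therefore gave a measurable array signal for both receptors and for IGFBP6 and IGFBP7, and at most a marginal one for the ligand and the other 5 binding proteins. A member at background can still be expressed below the range of the array.

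The 10 genes were tested in each of 13 comparisons, and a gene passed where limma's moderated test gave a Benjamini-Hochberg adjusted p under 0.05 over all 48803 probes and a log2 fold change beyond 0.5. IGFBP6 and IGFBP7 were the only members that passed in any of the 13. In the NET29 line 2 of 10 members passed, both lower (background 3.29% of all genes in either direction and 2.23% lower). In the NET39 line the same 2 passed, both lower (3.72% and 2.51%). In the NET47 line IGFBP6 alone passed, lower (1.21% and 0.627%). The median log2 change over the 10 members was -0.16, -0.24 and -0.08 in the NET29, NET39 and NET47 lines, beside 0.00 over all genes in each. At an unadjusted p under 0.05 the counts were 5, 6 and 1, beside 17.8%, 18.1% and 10.2% of all genes. The 3 lines share the same 4 untreated arrays. Because the members were chosen with earlier results known, the shares over all genes serve as a description only. In these bulk samples fewer cells that make a transcript and less of it per cell cannot be told apart.

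The ligand IGF2, a fetal growth factor from an imprinted locus, was at background in every group. Its 3 probes spanned 5.74 to 6.22, 5.85 to 6.13 and 5.68 to 6.01 over the 27 arrays. Group means of the brightest probe lay between 5.96 in the NET39 line and 6.07 in untreated cells, and no array exceeded its own background level. The readthrough gene INS-IGF2, with 2 probes, and the locus neighbours H19 and INS were also above background on 0 of 27 arrays. Among 14 genes of the IGF2 locus and IGF2 mRNA regulation, which include the IGF2 mRNA binding proteins, 11 were above background on at least 3 arrays. In the NET29, NET39 and NET47 lines 0 of them passed, beside 3.29%, 3.72% and 1.21% of all genes.

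IGF1R, the signalling receptor, gave a low signal that stayed above background on every array. In the NET29 line it read 6.65, 6.68, 6.61 and 6.43. In the NET39 line it read 6.60, 6.63, 6.45 and 6.48, against 6.69, 6.88, 6.67 and 6.97 in untreated cells. All 4 NET39 arrays lay below all 4 untreated arrays, and the NET29 arrays overlapped them at 1 value. The differences were -0.21 ± 0.09 in the NET29 line and -0.27 ± 0.09 in the NET39 line (log2, SE), neither past the threshold (limma, adjusted p = 0.34 and 0.15). The NET47 line averaged 6.72 ± 0.12 (SD, n = 3) and untreated cells 6.81 ± 0.15 (SD, n = 4). The soluble fragments averaged 6.86 ± 0.13 for NET29, 6.84 ± 0.16 for NET39 and 6.79 ± 0.23 for NET47, against 7.05 ± 0.08 in NLS-GFP cells (SD, n = 3 each), the highest of the 8 group means. No neighbouring pair in the order of the 8 group means passed the threshold. Set against NLS-GFP cells in place of untreated cells, the NET39 line was 0.51 log2 lower in IGF1R (limma, adjusted p = 0.0014).

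IGF2R, the clearance receptor, was far above background everywhere. It read 10.96, 11.17, 10.84 and 10.97 in the NET29 line and 11.01, 10.57, 10.88 and 10.95 in the NET39 line. It read 11.15, 11.05 and 11.16 in the NET47 line, against 11.25, 11.44, 11.10 and 11.15 in untreated cells. The NET39 arrays lay below every untreated array, and the other lines overlapped untreated cells. The NET39 difference of -0.38 ± 0.09 had an adjusted p of 0.012 (limma) but stayed inside the fold limit. IGF2R averaged 10.95 ± 0.18 with the NET29 fragment and 11.03 ± 0.02 with the NET39 fragment, against 11.34 ± 0.12 in NLS-GFP cells (SD, n = 3 each). All arrays of both fragments were below all NLS-GFP arrays, at -0.39 ± 0.10 and -0.32 ± 0.10 log2 (limma, adjusted p = 0.060 and 0.30). The 8 group means spanned 0.49 log2 units, from the NET39 line at the low end to NLS-GFP cells at the high end, with no neighbouring pair past the threshold.

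**Figure D1:**
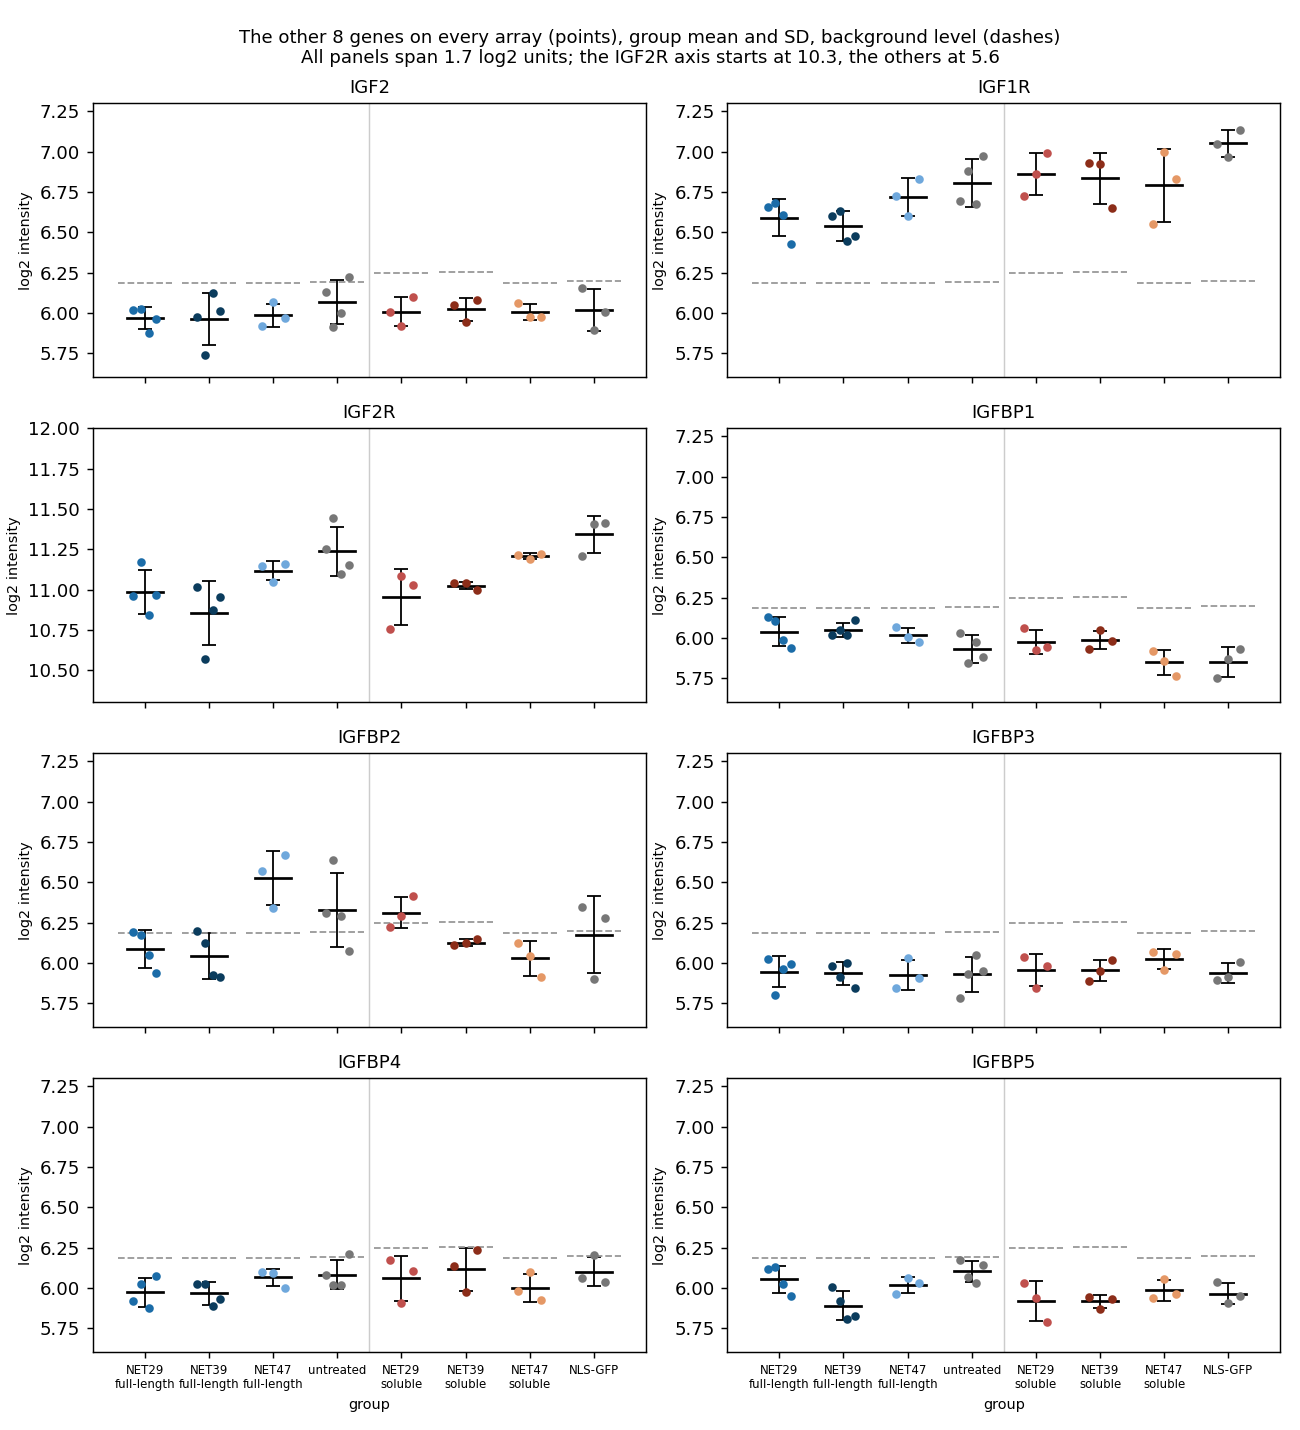
Log2 intensity (y axes) of IGF2, both receptors and IGFBP1 to IGFBP5 on each of 27 arrays, by group (x axes). Points are arrays, lines and bars the group mean and SD, and dashes the group's mean background level. IGF1R and IGF2R sit above the dashes in all 8 groups, and IGF2, IGFBP1, IGFBP3 and IGFBP4 were above their own array's background on 0 arrays.

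IGFBP1, an insulin-regulated binding protein made mainly by liver, was at background, with group means from 5.85 to 6.05. IGFBP3, the main IGF carrier in blood, ranged over 5.78 to 6.07 on its brighter probe and 5.75 to 6.11 on the other. IGFBP4, which the protease PAPPA cleaves, ranged over 5.88 to 6.24. IGFBP5, a binding protein of bone and muscle matrix, read 6.01, 5.92, 5.81 and 5.83 in the NET39 line, against 6.17, 6.07, 6.03 and 6.14 in untreated cells. Those IGFBP5 arrays did not overlap, but 7 of the 8 were not above background, so no fold is given, and on the second IGFBP5 probe the groups overlapped.

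IGFBP2, a binding protein of fetal tissues and many tumours, lay at the edge of detection. It read 6.57, 6.34 and 6.67 in the NET47 line, all above background, against 6.31, 6.64, 6.29 and 6.07 in untreated cells, 3 of them above background. In the NET29 line it read 6.19, 6.17, 6.05 and 5.94, and in the NET39 line 6.20, 6.12, 5.93 and 5.91, with 1 array of each above background. Every NET47 array was above every NET29 and NET39 array, while NET47 and untreated arrays overlapped. The NET47 line exceeded the NET29 line by 0.44 ± 0.11 and the NET39 line by 0.49 ± 0.11 (log2, SE; limma, adjusted p = 0.043 and 0.020), both inside the fold limit. With a smaller normexp offset of 16, which shrinks low signals less, these differences were 0.77 and 0.87 and passed. They also passed without NET47 full-length replicate 2 (0.53 and 0.58), and the second passed without NET39 full-length replicate 1 or 2 (0.54 and 0.51).

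IGFBP6 (probe ILMN_1669362) was lower in the NET29 and NET39 lines than in untreated cells. It read 9.23, 9.21, 9.05 and 8.91 in the NET29 line. It read 9.04, 9.23, 8.82 and 8.98 in the NET39 line, against 9.87, 10.68, 10.49 and 10.90 in untreated cells. Every array of both lines lay below every untreated array. Of the 10 members, 2 lay wholly below untreated cells in the NET29 line (IGFBP6 and IGFBP7) and 5 in the NET39 line (with IGF1R, IGF2R and IGFBP5, the last at background), where 4.58% and 5.04% of all genes did. The difference was -1.39 ± 0.17 in the NET29 line, 2.61-fold lower, and -1.47 ± 0.17 in the NET39 line, 2.77-fold lower (log2, SE; limma, adjusted p = 1.01e-05 and 3.85e-06). Both passed in all 21 alternatives tried, leaving out each array among them.

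In the NET47 line IGFBP6 read 9.59, 9.61 and 9.93. The highest of these lay above the lowest untreated array, so the groups overlapped. The difference was -0.78 ± 0.19, 1.71-fold lower (limma, adjusted p = 0.044). This call was not stable. Leaving out untreated replicate 2, 3 or 4 or any 1 of the 3 NET47 arrays ended it, with log2 changes of -0.71, -0.78 and -0.64 and of -0.72, -0.73 and -0.89. Without the 3 arrays that lay apart it was -0.58 (adjusted p = 0.47). Median scaling (adjusted p = 0.26) and a fit to only the arrays compared (adjusted p = 0.69) also ended it. NET47 against the NET29 and NET39 lines gave 0.61 ± 0.19 and 0.69 ± 0.19 for IGFBP6, with no overlap of arrays, and neither passed (limma, adjusted p = 0.13 and 0.060). The second passed in 6 of 18 alternatives. The NET39 and NET29 lines differed by -0.08 ± 0.17 and overlapped.

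Among transient transfections IGFBP6 had its highest mean with the NET29 fragment and its lowest with the NET47 fragment. It read 11.25, 11.35 and 11.02 with the NET29 fragment, against 10.66, 10.75 and 10.13 in NLS-GFP cells. It read 10.43, 10.23 and 10.24 with the NET39 fragment and 9.99, 10.05 and 9.39 with the NET47 fragment. All NET29 fragment arrays lay above and all NET47 fragment arrays below the NLS-GFP arrays, while the NET39 fragment overlapped them. Over the 10 members, the NET29 fragment had 2 wholly higher and 1 wholly lower than NLS-GFP cells (9.77% and 13.1% of all genes), the NET39 fragment 3 wholly lower (9.71%) and the NET47 fragment 2 wholly lower (7.39%). For IGFBP6 no fragment passed the threshold. The IGFBP6 changes were 0.70 ± 0.20, -0.21 ± 0.20 and -0.70 ± 0.20 log2 for NET29, NET39 and NET47 (limma, adjusted p = 0.085, 0.82 and 0.14). Median scaling cut the NET29 and NET47 changes to 0.31 and -0.31 (adjusted p = 0.57 and 0.59). The NET29 change passed in a fit to only the arrays compared. With array weights, the NET29 and NET47 changes were 0.58 and -0.75 and passed, and without NLS-GFP replicate 3 the NET47 change was -0.89 and passed. NLS-GFP and untreated cells averaged 10.51 ± 0.33 (SD, n = 3) and 10.49 ± 0.44 (SD, n = 4).

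IGFBP7 (probe ILMN_2062468) had the widest range of group means of the 10 members, 2.66 log2 units, and NET39 the lowest level. It read 9.74, 9.37, 9.74 and 9.71 in the NET29 line. It read 8.88, 8.29, 8.31 and 8.83 in the NET39 line, against 11.54, 10.98, 10.88 and 11.57 in untreated cells. The NET39, NET29 and untreated arrays formed 3 ranges that did not overlap. The NET29 line was lower by -1.60 ± 0.15 on the log2 scale, 3.03-fold, and the NET39 line by -2.66 ± 0.15, 6.34-fold (limma, adjusted p = 9.93e-08 and 1.64e-11). Both passed in all 21 alternatives. The smallest changes, -1.11 in the NET29 line and -2.18 in the NET39 line, came with NLS-GFP cells as control in place of untreated cells. The NET47 line read 10.90, 11.29 and 10.81 and overlapped untreated cells, at -0.24 ± 0.16 (limma, adjusted p = 0.90).

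The lines also differed from each other in IGFBP7. NET39 was -1.06 ± 0.15 against NET29, 2.09-fold lower (limma, adjusted p = 4.40e-04), where 1 of 10 members passed and 0.171% of all genes did, 0.0857% lower. With median scaling this difference was -1.09 and no longer passed (adjusted p = 0.13). NET47 was 1.36 ± 0.16 above NET29, 2.57-fold, and 2.42 ± 0.16 above NET39, 5.36-fold (limma, adjusted p = 6.88e-06 and 3.36e-10). In those 2 comparisons 1 of 10 members passed, with 2.28% and 2.37% of all genes in either direction and 1.66% and 1.74% higher. In the order of the 8 group means, untreated cells were highest, followed by the NET47 line, the NET29 fragment, NLS-GFP, the NET39 fragment, the NET47 fragment, the NET29 line and the NET39 line. The step between the NET29 and NET39 lines was the only one between neighbours to pass the threshold, and not with median scaling.

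With the soluble fragments IGFBP7 read 10.79, 10.98 and 10.90 for NET29, 10.11, 10.20 and 10.08 for NET39 and 9.75, 9.93 and 9.72 for NET47. NLS-GFP cells read 10.74, 10.77 and 10.76. The NET39 and NET47 fragment arrays lay below all NLS-GFP arrays, and the NET29 fragment arrays above them. The NET47 fragment passed at -0.95 ± 0.17, 1.94-fold lower (limma, adjusted p = 0.0030), as 1 of 10 members, with 1.17% of all genes past the threshold and 0.814% lower. Scaling arrays to their medians gave -0.57 (adjusted p = 0.46), with the median of all genes at 0.10, and lower genes were 28.9% of all calls in place of 69.7%. The NET39 fragment gave -0.63 ± 0.17 and the NET29 fragment 0.14 ± 0.17 (limma, adjusted p = 0.18 and 0.79), and in those 2 comparisons 0 of 10 members passed, with 0.145% and 1.3% of all genes. At an unadjusted p under 0.05 the counts of members were 2, 3 and 3 for the NET29, NET39 and NET47 fragments, beside 17.9%, 11.6% and 9.53% of all genes. In NLS-GFP cells IGFBP7 was -0.49 ± 0.16 against untreated cells (limma, adjusted p = 0.12), and it was the 1 member wholly lower there, as were 4.73% of all genes. Of 10 members 0 passed there, 3 had an unadjusted p under 0.05 (18.9% of all genes), and 1.11% of all genes passed.

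**Figure D2:**
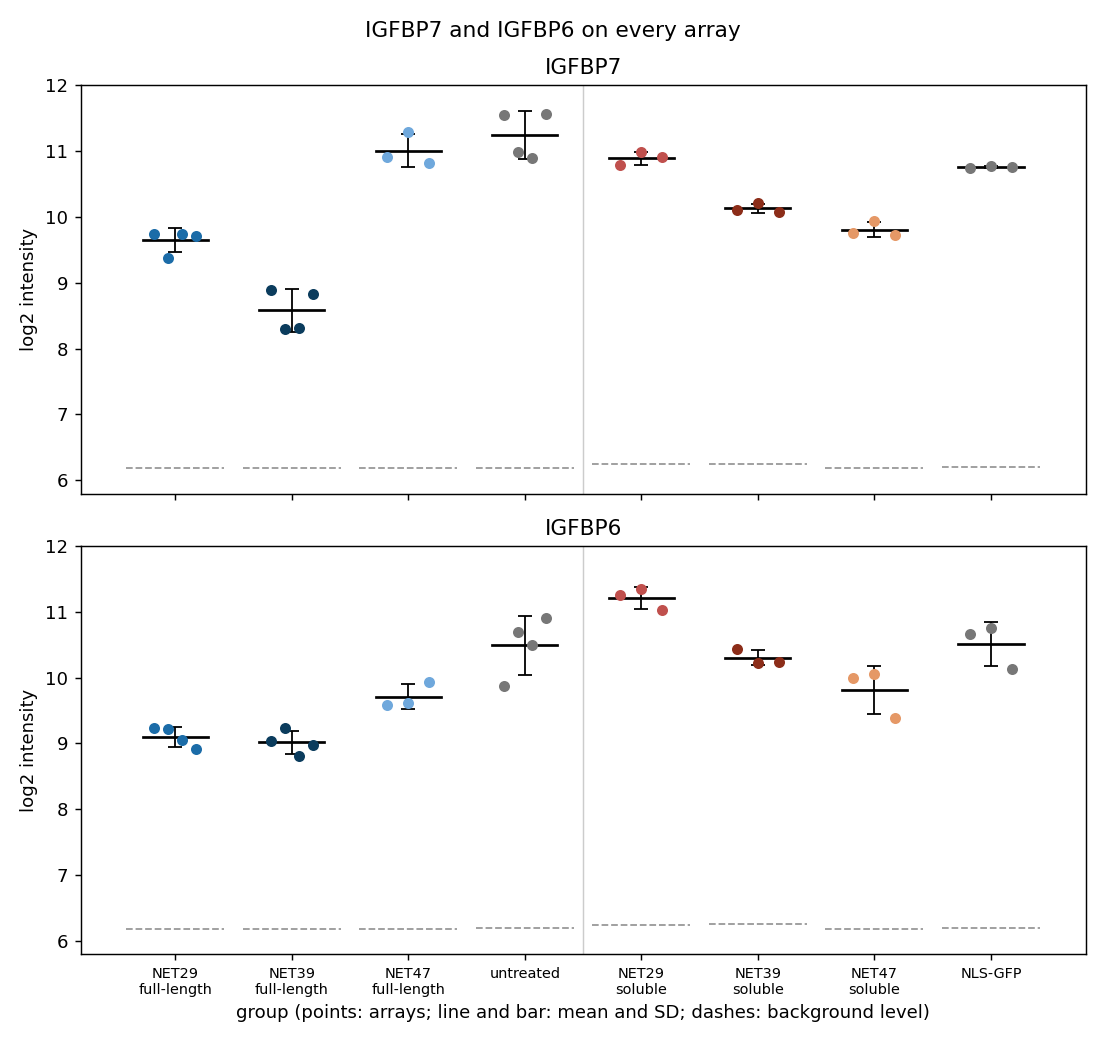
Log2 intensity (y axes) of IGFBP7 and IGFBP6 on each of 27 arrays, by group (x axis). Points are arrays, lines and bars the group mean and SD, and dashes the mean background level. IGFBP7 in the NET39 line lies between 8.29 and 8.88, below all other arrays, and IGFBP6 in the NET29 and NET39 lines lies at or below 9.23.

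The full-length and soluble forms of a NET were compared by the difference of their effects, each against its own control. Stable and transient expression differ along with the form, and their parts cannot be told apart. For NET29 the line effect minus the fragment effect was -2.08 ± 0.27 for IGFBP6 and -1.74 ± 0.23 for IGFBP7 (log2, SE; limma, adjusted p = 2.79e-05 and 3.60e-05). For NET39 it was -1.26 ± 0.27 and -2.04 ± 0.23 (limma, adjusted p = 0.012 and 4.83e-06). In both comparisons 2 of 10 members passed, both with the line effect lower, and 5.34% and 2.29% of all genes passed in either direction, 2.6% and 1.32% lower. The effects of NET29 on IGFBP6 had opposite signs in the measured values, -1.39 for the line and 0.70 for the fragment, of which only the line's passed. The NET39 difference for IGFBP6 did not pass without the 3 arrays that lay apart (-0.95, adjusted p = 0.057), with median scaling or in a fit to only the arrays compared. Median scaling ended the NET29 call for IGFBP7 (-1.24, adjusted p = 0.18).

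For NET47 the pattern was another. IGFBP7 changed by -0.24 in the line and -0.95 with the fragment, and the difference of 0.71 ± 0.23 did not pass (limma, adjusted p = 0.38). IGFBP6 changed by -0.78 and -0.70, a difference of -0.08 ± 0.27 (adjusted p = 0.997). Of 10 members 0 passed for NET47, 2 had an unadjusted p under 0.05 (8.86% of all genes), and 0.723% of all genes passed. With array weights 1 member, IGFBP7, passed at 0.95, and 1.51% of all genes passed.

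**Figure D3:**
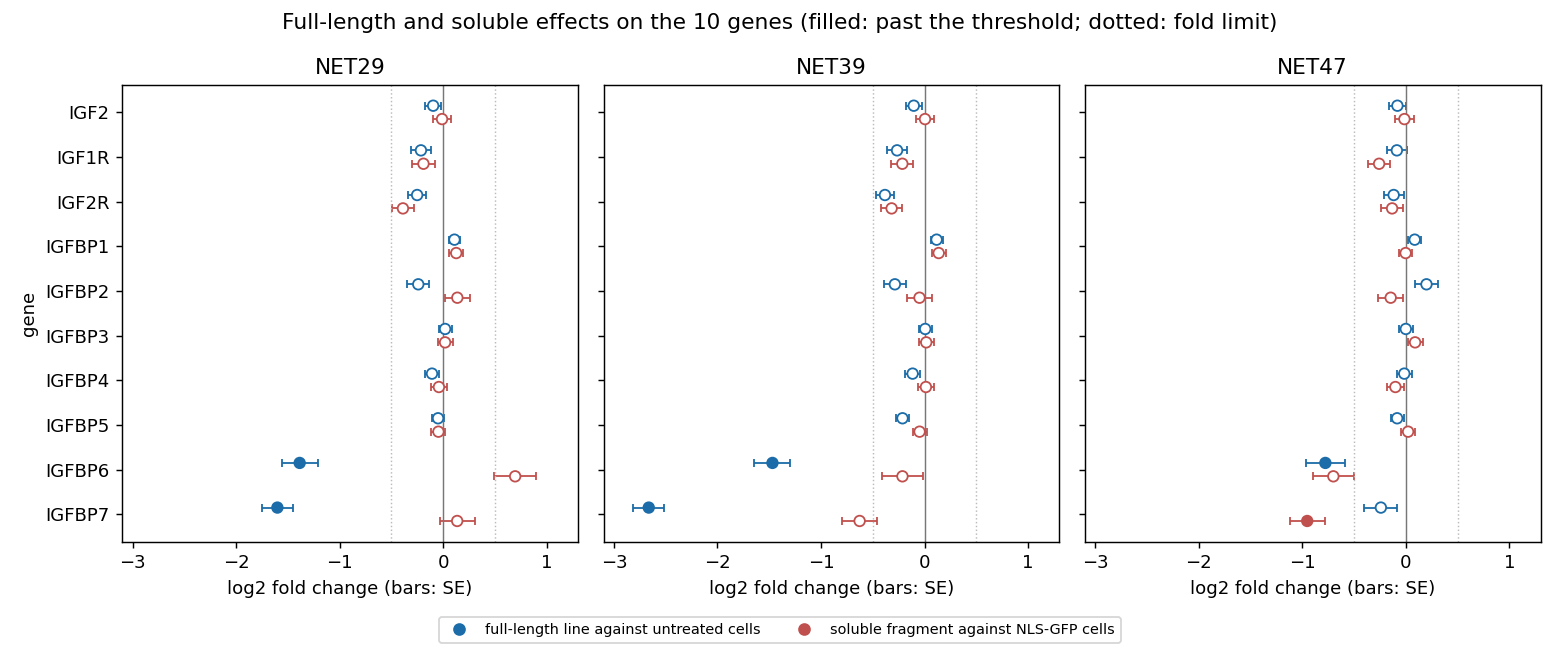
Log2 fold change (x axes) of the 10 genes (rows), 1 panel for each NET, for the full-length line against untreated cells and the soluble fragment against NLS-GFP cells. Bars are SE, filled points passed the threshold, and dotted lines mark the fold limit of 0.5. IGFBP6 and IGFBP7 stand far left in the NET29 and NET39 lines, at -1.39 to -2.66, and the other 8 genes stay inside the fold limit in all 6 comparisons.

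IGFBP6 and IGFBP7 were related across the 27 arrays (Pearson r = 0.72) but not within groups, where r was -0.13 after each group's mean was taken off. The points share the arrays and their normalisation. Among 11890 other genes above background on at least 3 arrays, the 3 most like IGFBP7 over 27 arrays were COL6A3, a collagen VI chain (r = 0.94), NAP1L5, a nucleosome assembly protein family member (r = 0.93), and TGFBI, a secreted matrix protein (r = 0.90). Within groups these correlations were 0.82, 0.40 and 0.55. The 3 most like IGFBP6 were PLAAT3, a phospholipase and acyltransferase (r = 0.96), LIF, a cytokine of the interleukin 6 family (r = 0.94), and LTBP3, a latent TGF-beta binding protein (r = 0.93), with 0.71, 0.56 and 0.69 within groups.

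A list of 16 genes held the other ligands IGF1 and INS, the carrier subunit IGFALS, and proteases and their inhibitors that bear on how much IGF is free, of which 8 were above background on at least 3 arrays. In the NET29 line 1 passed higher and 2 lower, in the NET39 line 0 and 3, and in the NET47 line 0 and 1. Of all genes 3.29%, 3.72% and 1.21% passed in these lines, 2.23%, 2.51% and 0.627% lower. The median log2 change of the list was 0.03, -0.01 and 0.02 in the NET29, NET39 and NET47 lines, beside 0.00 over all genes. HTRA1, a secreted serine protease that can cleave IGFBPs, read 8.56, 8.72, 8.40 and 8.26 in the NET29 line. It read 8.52, 8.58, 8.15 and 8.34 in the NET39 line, against 10.19, 10.30, 9.58 and 9.76 in untreated cells. Neither line overlapped untreated cells, at -1.47 ± 0.17 and -1.56 ± 0.17 (limma, adjusted p = 2.56e-06 and 9.98e-07), while NET47 gave 0.17 ± 0.18 (adjusted p = 0.98).

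PLAT, tissue plasminogen activator, was lower in all 3 lines. It averaged 8.29 ± 0.13 in the NET29 line, 7.84 ± 0.11 in the NET39 line and 8.40 ± 0.27 in the NET47 line, against 10.47 ± 0.68 in untreated cells (SD, n = 4, 4, 3 and 4). The changes were -2.18 ± 0.29, -2.63 ± 0.29 and -2.07 ± 0.31 (limma, adjusted p = 2.49e-05, 1.50e-06 and 5.03e-04), the last not past the threshold in a fit to only the arrays compared. With the NET47 fragment PLAT averaged 8.23 ± 0.49, against 10.19 ± 0.96 in NLS-GFP cells (SD, n = 3 each), and it passed at -1.96 ± 0.34 (limma, adjusted p = 0.0020), a call that median scaling or a fit to only the arrays compared ended. The stanniocalcins STC1 and STC2 are secreted inhibitors of the IGFBP protease PAPPA, and in no line did both pass. STC1 passed higher in the NET29 line at 0.55 ± 0.12 (limma, adjusted p = 0.0088), a call lost in 6 of 21 alternatives, among them without untreated replicate 4 and without the 3 arrays that stood apart (0.46). In the NET39 line STC1 was at 0.32 ± 0.12 (adjusted p = 0.22). STC2 passed lower in the NET39 line at -0.63 ± 0.10 and stayed inside the fold limit in the NET29 line at -0.47 ± 0.10 (limma, adjusted p = 9.64e-05 and 0.0034). Median scaling, array weights or a fit to only the arrays compared ended the STC2 call.

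Downstream of the receptor, 27 of 32 listed genes of IGF and insulin receptor signalling were measured and 25 were above background on at least 3 arrays. In the NET29 line 1 passed higher and 2 lower, in the NET39 line 0 and 2, and in the NET47 line 0 in either direction. Of all genes 3.29%, 3.72% and 1.21% passed in these lines, 2.23%, 2.51% and 0.627% lower. The list's median log2 change was 0.01, 0.02 and 0.01 in the NET29, NET39 and NET47 lines. IRS1, the docking protein that IGF1R phosphorylates, read 7.50, 7.79, 7.58 and 7.42 in the NET29 line. It read 7.39, 7.69, 7.34 and 7.27 in the NET39 line, against 8.37, 8.26, 8.39 and 8.14 in untreated cells. Neither line overlapped untreated cells, and the changes were -0.72 ± 0.09 and -0.87 ± 0.09 (limma, adjusted p = 7.77e-06 and 3.98e-07). NET47 changed IRS1 by -0.28 ± 0.10 in the line (adjusted p = 0.32) and by -0.65 ± 0.10 with the fragment (limma, adjusted p = 6.56e-04).

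SHC1, an adaptor to RAS, was lower at -0.79 ± 0.09 in the NET29 line and -1.0 ± 0.09 in the NET39 line (limma, adjusted p = 2.72e-06 and 6.45e-08). Its probes disagreed in size. The second gave -0.59 and -0.46 and the third -0.09 and -0.22. With median scaling IRS1 was at -0.68 and -0.85 and SHC1 at -0.69 and -0.89 in the NET29 and NET39 lines, close to the values above, and none of the 4 passed (adjusted p = 0.28, 0.075, 0.33 and 0.075). For the NET47 fragment median scaling cut the IRS1 change to -0.31 (adjusted p = 0.64). GRB14, an adaptor that inhibits the insulin receptor, passed higher in the NET29 line at 0.52 ± 0.10 (limma, adjusted p = 0.0015). Its probe ILMN_1793832, above background on all 27 arrays, gave 0.20 and did not pass. Its probes ILMN_1700037 and ILMN_1764749 were above background on 0 arrays and could not inform the call. Leaving out untreated replicate 2, or replicate 4 of the NET29 line, ended the call, as did 3 more of 21 alternatives, among them leaving out the 3 arrays that stood apart (0.48). Among the fragments, NET47 passed higher for IRS2 at 0.54 and NET29 lower for FOXO3 at -0.56 (limma, adjusted p = 0.042 and 0.033), and neither call was stable. The IRS2 call was lost with the replicate block (adjusted p = 0.063) and without NLS-GFP replicate 1 or 2 or NET47 soluble replicate 1 or 3, and the FOXO3 call without NLS-GFP replicate 1 or 2 or any 1 NET29 soluble array.

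A list of 13 genes held proteins with an IGFBP-like amino-terminal domain, and 8 were above background on at least 3 arrays. In the NET29 and NET39 lines CCN3 passed higher and HTRA1 lower, and in the NET47 line 0 passed. Of all genes 3.29%, 3.72% and 1.21% passed in the NET29, NET39 and NET47 lines. CCN3, a matricellular signalling protein, averaged 8.34 ± 0.13 and 8.36 ± 0.18 in the NET29 and NET39 lines, against 7.67 ± 0.55 in untreated cells (SD, n = 4 each). The arrays overlapped, because untreated replicate 4 read 8.43. The changes were 0.67 ± 0.17 and 0.69 ± 0.17 (limma, adjusted p = 0.031 and 0.021), lost in 10 and 7 of 21 alternatives. Leaving out untreated replicate 2 or 3 ended both calls, as did leaving out any 1 NET29 array for NET29 and NET39 full-length replicate 2 for NET39. Both were also lost without untreated replicate 2 and replicate 3 of the NET47 line together. Cell-surface partners of IGFBPs, 11 of 12 measured, had 0 past the threshold in the 3 lines.

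A list of glucose, hypoxia and FOXO responsive genes that includes regulators of IGFBP1 had 13 of 14 genes measured. In both the NET29 and the NET39 line 0 passed higher and 2 lower, beside 2.23% and 2.51% of all genes lower. EPAS1, the hypoxia factor HIF-2 alpha, changed by -0.95 ± 0.11 and -0.85 ± 0.11 (limma, adjusted p = 5.70e-06 and 2.49e-05), and with median scaling the changes were -0.86 and -0.75 and did not pass. USF1, an E-box binding factor, changed by -0.54 ± 0.10 and -0.52 ± 0.10 (limma, adjusted p = 0.0019 and 0.0026). Its second probe also passed in both lines, at -0.60 and -0.52 (limma, adjusted p = 3.13e-04 and 0.0013). The USF1 calls on the brightest probe were lost in 5 and 7 of 21 alternatives, among them without untreated replicate 2 and without replicate 1 of the line compared. Leaving out untreated replicate 2 and replicate 3 of the NET47 line together also ended both. Without the 3 arrays that stood apart the NET39 call was lost at -0.48. In the NET47 line 0 passed in this list (1.21% of all genes), and EPAS1 changed by -0.43 ± 0.12 (limma, adjusted p = 0.13). The NET47 fragment changed EPAS1 by -0.70 ± 0.13 (limma, adjusted p = 0.0058), which was lost without NET47 soluble replicate 3 and with median scaling (-0.31).

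**Figure D4:**
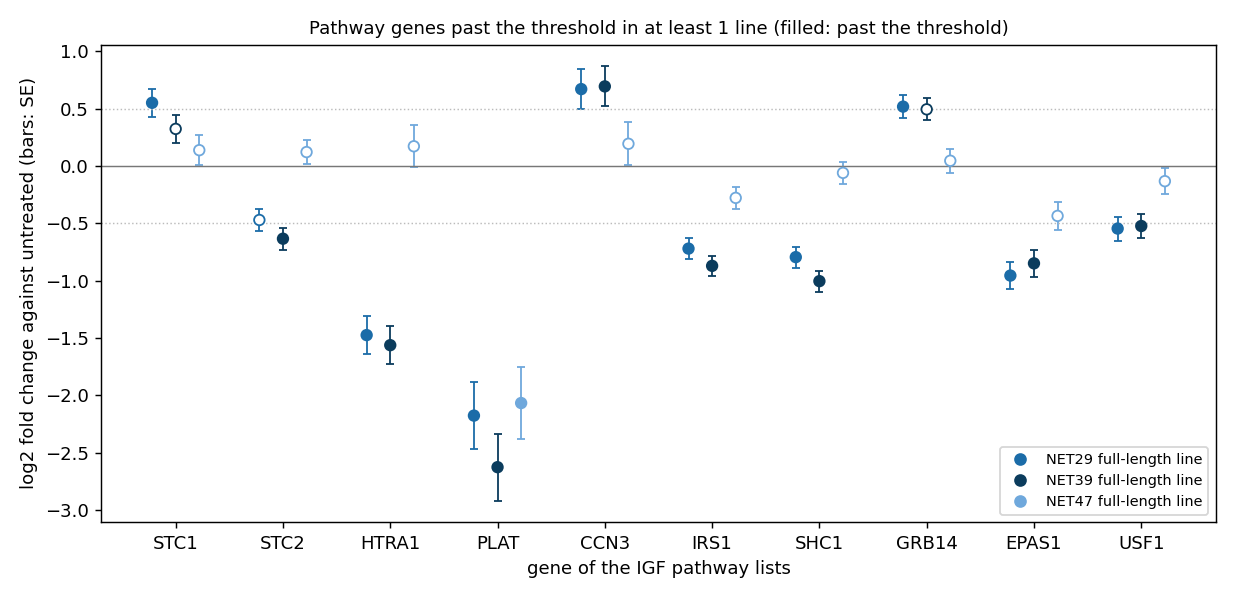
Log2 fold change against untreated cells (y axis) of the 10 pathway genes that passed in at least 1 full-length line (x axis), for the NET29, NET39 and NET47 lines. Bars are SE, filled points passed the threshold, and dotted lines mark the fold limit of 0.5. PLAT is filled in all 3 lines, and the other 9 genes are open in the NET47 line.

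Some mesenchymal markers were lower in the same lines as IGFBP6 and IGFBP7, and most did not pass. Of 18 markers, 4 were lower in the NET29 line (S100A4, SPARC, TAGLN2 and PDGFRB), 5 in the NET39 line (CDH2, SPARC, TPM1, TAGLN2 and PDGFRB) and 0 in the NET47 line, with 0 higher in each, beside 2.23%, 2.51% and 0.627% of all genes lower. Their summed linear signal ranged over 91754 to 96119 in the NET29 line, 88532 to 90370 in the NET39 line and 93841 to 95714 in the NET47 line, against 93724 to 105186 in untreated cells. The transient groups also lay below every untreated array, with NLS-GFP cells at 88817 to 90440.5. The fragments ranged over 87516 to 91903 for NET29, 84467 to 86050 for NET39 and 84117 to 90439 for NET47. A lower sum was therefore not particular to the lines, and 0 markers passed with any fragment against NLS-GFP cells. The brightest markers, ANXA2, VIM and LGALS1, weigh most in the sum and did not pass in any line. The part of the markers in the IGFBP6 and IGFBP7 results was not tested. Among the epithelial, endothelial and hepatocyte markers 0 passed in the 3 lines. Of the blood cell markers, CD3D alone passed, higher in the NET47 line.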

How the data were processed

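RNA was hybridised for the study to Illumina HumanHT-12 v3 bead arrays, 1 array a sample. The deposited intensity values, 48803 probes on 27 arrays with no normalisation, gave all main results, and the deposited log2 values, which the authors quantile normalised with limma, were kept for an alternative. Background was corrected with normexp (offset 50) before quantile normalisation and log2, using limma 3.58.1 under R 4.3.3, a treatment that understates changes near background. A single linear model held 8 group means (19 residual degrees of freedom), and each contrast was tested two-sided with lmFit and eBayes. The limits on adjusted p and fold are those of the study, whose moderated F test was an alternative. Groups follow the labels, also for the soluble-fragment cells, which the labels give as transient and 1 passage of the paper as stable.

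The array annotation gave 1 gene symbol for 27577 probes, several for 13 and none for 21213. Symbols were updated through Entrez identifiers, of which 27540 were found in the reference gene table. The members, the gene lists and the tests were chosen with earlier results of these data known. Every member is described, and from each list up to 4 genes past the threshold with the smallest p in each of the 3 full-length comparisons. For the 2 members with the widest range of group means, the 3 most correlated genes are given. Genes named for a fragment comparison alone (IRS2, FOXO3), the markers named and CD3D fall outside this rule and were chosen after their values were seen. Alternatives were median scaling, cyclic loess, other background corrections, the deposited log2 values, a filter on dim probes, no fold limit, array weights, a replicate block, only the arrays compared, NLS-GFP cells as control, and arrays left out. The fit was tested on simulated data. Chip and scan were not given in the sources used. Same-numbered arrays deviated together, with every pair over 0.1, in the NET47 fragment and NLS-GFP (0.39 to 0.61) and in the NET39 and NET29 lines (0.34 to 0.67). That pairing is read from the data alone, and the block changed no member's call there.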

Additional observations from a re-analysis of the deposited data

Results flagged for a closer look

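IGFBP7 in NET29 full-length replicate 2 read 9.37, apart from the other 3 arrays of its group at 9.71 to 9.74. Of 30 groups of 4 arrays examined for such gaps, chance marks about 1 in 20. The group remained below every untreated array with and without it.

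Line and fragment effects of the same NET differed by the interaction test for IGFBP6 (NET29 -2.08, NET39 -1.26) and IGFBP7 (NET29 -1.74, NET39 -2.04), on the log2 scale. Stable and transient expression differ with the form of the protein, and their part was not tested.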

How the results depend on the processing

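Over 282 recomputed counts of members past the threshold, 240 stayed within 1.5 times. Log2 changes were recounted for each member and comparison that passed in at least 1 setting, 439 in all. Of these, 398 had the same status as in the main fit, passed or not passed. Another 17 lost a call, 24 gained one and 0 changed direction. Median scaling gave 0 for the NET47 line, the NET47 fragment and NET39 against NET29 (where IGFBP7 kept its size, at -1.09), and 1 for the line minus fragment differences of NET29 and NET39. Calls over all genes fell in the same 5 comparisons, to 0.536%, 0.686%, 0.102%, 0.841% and 0.423%, from 1.21%, 1.17%, 0.171%, 5.34% and 2.29%. Of the pathway-list calls recomputed, median scaling ended all but those of HTRA1 and PLAT in the lines (marker genes were not recomputed). Lower genes were 85.7% of calls in place of 61.7% for the NET29 fragment. The NET47 line count was 0 with the replicate block, without the 2 arrays apart on the second principal component, without all 3 arrays that stood apart (chosen after seeing the data), and in a fit to only the arrays compared. Leaving out 1 array gave 0 to 1 there, 1 to 2 for NET47 against NET29 and against NET39, and 1 to 2 for the NET47 fragment, the upper value without NLS-GFP replicate 3. NET47 against NET39 gave 2 with cyclic loess, the deposited log2 values, no background correction, the replicate block, the filter on dim probes, array weights, no fold limit or only the arrays compared, and 3 with offset 16. Of all genes, 2.37% passed there in the main fit, 3.17% with offset 16, 2.73% with array weights and 4.01% of those kept by the filter. The first 4 settings gave 2.36% to 2.59%. NET47 against NET29 gave 2 with offset 16, array weights, no fold limit or only the arrays compared. Of all genes, 2.28% passed there in the main fit, 3.26% with offset 16 and 2.77% with array weights. The NET39 line gave 4 with no fold limit. Array weights gave 1, 1 and 2 for the NET29, NET39 and NET47 fragments and 1 for the NET47 line minus fragment difference. Calls over all genes rose there too, to 2.86%, 1.96%, 1.85% and 1.51%, from 1.3%, 0.145%, 1.17% and 0.723%. No share over all genes was computed with no fold limit or with only the arrays compared. Only the arrays compared gave 1 for the NET29 and NET39 fragments and 1 for the NET39 line minus fragment difference, which was also 1 without the 3 arrays. The cause was not tested in any of these. Under the replicate block the IGFBP6 change in the NET47 line was -0.76 (adjusted p = 0.052) and NET47 against NET39 was 0.71. Same-numbered line and untreated arrays did not all deviate together. Members at or near background, IGFBP2 included, carry little signal to compare.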
